A study of Mus musculus with 13 samples.

Results

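Fibrillar, network-forming and other collagens and 17 further genes of the cardiac extracellular matrix were compared between hearts in which Oma1 was knocked down and control hearts. The genes were taken by name: every collagen alpha chain, whose mouse symbols run from Col1a1 upward, together with Fn1, Postn, Thbs1, Thbs4, Sparc, Lox, Loxl1, Loxl2, Timp1 to Timp4, Mmp2, Mmp14, Ccn2 (also called Ctgf), Dcn, Lum, Fbn1 and Eln. The array annotation names 59 of them, 42 collagens and 17 others, among 19505 genes in all. Col7a1, Col12a1, Fbn1 and Loxl2 were not analysed here.

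RNA came from the hearts of 13 mice aged 33 weeks, with 1 Clariom S Mouse array per mouse. Every mouse was OMA1+/- and carried the C10 G58R knockin mutation, a mutation of the mitochondrial protein CHCHD10 that causes heart disease in mice, so the CTRL ASO hearts carried both alleles too. The mice had received weekly subcutaneous injections, at 50 mg/kg, of an antisense oligonucleotide (ASO): OMA1 ASO1 in 5 mice, OMA1 ASO2 in 3 mice, or a nontargeting CTRL ASO in 5 mice. OMA1 is a protease of the inner mitochondrial membrane that is activated by stress. The authors reported that some OMA1 ASO mice died during the course of injections. The labels do not say whether every heart came from a mouse that completed it. Only mutant, injected hearts were compared, and since each mouse gave 1 array, p-values measure the spread between mice.

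The matrix of the heart is laid down mainly by fibroblasts. Type I and type III collagen form the fibrils between muscle bundles, type IV collagen forms the sheet-like network of the basement membrane around each cardiomyocyte and capillary, and type VI collagen forms beaded filaments that link fibrils to the basement membrane. Matricellular proteins such as periostin, thrombospondins and SPARC signal to cells more than they bear load, and the metalloproteinases that cut the matrix are held in check by the tissue inhibitors TIMP1 to TIMP4. Scarring hearts typically raise fibrillar collagens, periostin and crosslinking enzymes together. A signal from whole tissue does not tell fewer cells of a type from less RNA per cell.

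Values are log2 signals, so a difference of 1 is a factor of 2. Signals of different genes come from different probes and were not set against each other. On each array the brightest group of background probe sets, at 5.77 to 6.07, set the background level, and a signal over it counted as above background. Oma1 was below that level on 8 of 8 OMA1 ASO arrays and at 9.13 to 9.83 in CTRL ASO hearts, a level at least 10.7-fold lower in the OMA1 ASO hearts. The tissue label was borne out by its markers: 8 of 9 cardiomyocyte markers were above background. The log2 of the summed signals of the list was 21.8 to 21.9 in every treatment. The Y-linked genes were above background in 2 of 5 OMA1 ASO1, 0 of 3 OMA1 ASO2 and 2 of 5 CTRL ASO hearts, so the sexes were not balanced.

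No matrix gene passed the threshold. With limma and Benjamini-Hochberg adjustment over 22206 transcript clusters, 0 of 59 genes had an adjusted p under 0.01 in OMA1 ASO hearts against CTRL ASO hearts, where 1.04% of all clusters did. The count was also 0 of 59 for OMA1 ASO1 against CTRL ASO (0.919% of all clusters), for OMA1 ASO2 against CTRL ASO (0.761%) and for OMA1 ASO2 against OMA1 ASO1 (0.104%). An adjusted p under 0.05 was likewise reached by 0 of 59 in each comparison, against 2.28%, 1.86%, 1.6% and 0.23% of all clusters in the same order. At an unadjusted p under 0.05, the counts of matrix genes were 4, 5, 1 and 4 of 59 in the same order of comparisons, against 12.8%, 12.1%, 11.9% and 7.78% of all clusters. The median log2 fold change of the 59 genes was 0.08 with OMA1 ASO, 0.09 with OMA1 ASO1, 0.03 with OMA1 ASO2 and -0.03 between OMA1 ASO2 and OMA1 ASO1, beside medians of 0.01, 0.01, 0.01 and -0.01 over all clusters. In the pooled comparison 22 of the genes had a negative and 37 a positive fold change, and 47.6% of all clusters had a negative one.

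One heart stood apart, and many values are given with and without it. Others, among them the medians above, are given only with all 13 hearts and can depend on it. Counts of hearts on the same side of their treatment means were taken only with all 13 hearts. OMA1 ASO1 replicate 5 had the lowest mean correlation with the other arrays of its treatment (0.974, against 0.984 to 0.990 for the other arrays) and the fewest clusters above background (9299, against 9389 to 10069). Of the 26 matrix genes that were above background on every array of at least 1 treatment, it was the lowest of the 13 arrays for 10 and the highest for 5. CTRL ASO replicate 3 was the lowest for 7 and OMA1 ASO1 replicate 4 the highest for 9. No such counts were taken over all clusters, so they do not set matrix genes apart from other genes. Without OMA1 ASO1 replicate 5, again 0 of 59 genes passed the threshold in any of the 4 comparisons, and 5, 8, 1 and 7 had an unadjusted p under 0.05, against 14.5%, 13.7%, 13.8% and 9.07% of all clusters.

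**Figure D1:**
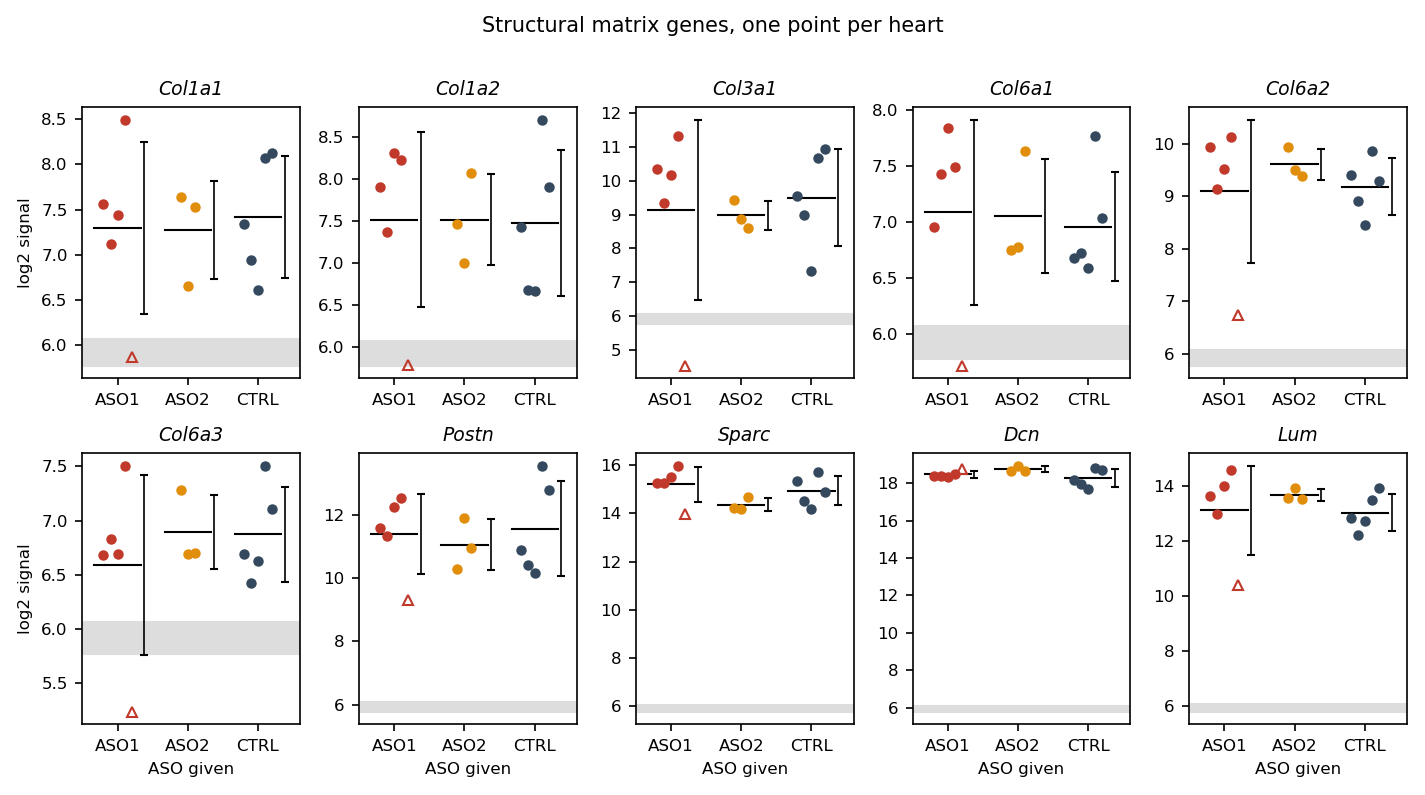
Log2 signal of 10 structural and matricellular genes, with the treatments side by side (OMA1 ASO1, OMA1 ASO2, CTRL ASO) and 1 point per heart. Lines are means, bars are SD, the grey band is the range of the background level over the arrays, and the open triangle is OMA1 ASO1 replicate 5, which is the lowest point for every gene drawn except Dcn.

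Among the fibrillar collagens, Col1a1 and Col1a2, which encode the chains of type I collagen, gave overlapping values in all treatments. Col1a1 was at 7.56, 7.12, 7.44, 8.49 and 5.87 in OMA1 ASO1 hearts, at 7.64, 6.66 and 7.53 in OMA1 ASO2 hearts, and at 7.34, 6.94, 6.61, 8.07 and 8.12 in CTRL ASO hearts. Its log2 fold change with OMA1 ASO was -0.13 (95% interval -0.88 to 0.62, adjusted p = 0.935), and 0.07 without OMA1 ASO1 replicate 5, whose value of 5.87 lies below background. Leaving out CTRL ASO replicate 4 or 5 also turned its sign (0.03 and 0.05). Col1a2 averaged 7.52 ± 0.84 with OMA1 ASO and 7.47 ± 0.87 with CTRL ASO (SD, n = 8 and 5), a log2 fold change of 0.04 with an interval of -0.81 to 0.89. These values include OMA1 ASO1 replicate 5, where Col1a2 was at 5.78, below background. Without that heart its change was 0.29 (adjusted p = 0.770). Col1a1 and Col1a2 lay on the same side of their treatment means in 12 of 13 hearts. The means in such counts include OMA1 ASO1 replicate 5, and no rate was taken over all pairs of genes.

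Col3a1, the single chain of type III collagen, had the widest spread between hearts of 1 treatment among the 26 genes above background on every array of a treatment. It was at 10.33, 9.35, 10.16, 11.30 and 4.53 in OMA1 ASO1 hearts, at 9.44, 8.87 and 8.60 in OMA1 ASO2 hearts, and at 9.56, 8.99, 7.35, 10.66 and 10.92 in CTRL ASO hearts. The value of 4.53, in OMA1 ASO1 replicate 5, lies below background. The pooled log2 fold change was -0.42 (interval -2.20 to 1.35, adjusted p = 0.907) with that heart and 0.23 without it, and the change with OMA1 ASO1 alone was -0.36 with it and 0.79 without it. Neither sign was past the threshold. The other 8 fibrillar chains, among them those of type II, V and XI collagen, were below background on all 13 arrays, and no fold is given for them.

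Of the basement membrane and network collagens, 4 of 9 were above background on every array of a treatment. Col4a1 and Col4a2 encode the chains of the common type IV collagen and are transcribed in opposite directions. Their RefSeq starts lie 21 bases apart, placed so that the transcripts overlap at their starts. Both genes were lower with OMA1 ASO2 than with OMA1 ASO1, and neither difference passed the threshold over all clusters. Because both genes were lower with the same oligonucleotide, the RefSeq windows around their starts (250 bases before to 50 after, assembly GRCm38.p6) are printed here, with CCAAT on either strand in capitals (ATTGG is CCAAT read on the other strand). The windows overlap by 78 bases.
Col4a1, chr8:11312777-11313076, minus strand: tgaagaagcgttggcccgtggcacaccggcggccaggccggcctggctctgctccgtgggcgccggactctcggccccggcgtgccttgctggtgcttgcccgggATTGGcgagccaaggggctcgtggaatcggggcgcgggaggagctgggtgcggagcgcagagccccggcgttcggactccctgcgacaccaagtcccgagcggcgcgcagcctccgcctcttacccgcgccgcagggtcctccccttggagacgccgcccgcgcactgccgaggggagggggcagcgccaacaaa
Col4a2, chr8:11312555-11312854, plus strand: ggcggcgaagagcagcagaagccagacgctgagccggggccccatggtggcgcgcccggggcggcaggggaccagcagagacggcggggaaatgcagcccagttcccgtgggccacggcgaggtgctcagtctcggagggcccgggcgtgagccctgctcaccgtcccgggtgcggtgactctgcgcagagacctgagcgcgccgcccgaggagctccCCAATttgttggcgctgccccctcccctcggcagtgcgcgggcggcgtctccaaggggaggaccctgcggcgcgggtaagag
Each window holds CCAAT once, 145 bases before the Col4a1 start and 32 bases before the Col4a2 start, at different places in the genome. CCAAT on either strand occurs in 37.4% of 32851 windows of this length and in 16 of 46 windows of matrix genes, so its presence does not set these genes apart.

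Col4a1 was at 8.04, 7.37, 6.68, 7.57 and 6.89 in OMA1 ASO1 hearts, at 7.05, 6.02 and 5.62 in OMA1 ASO2 hearts, and at 7.13, 6.36, 5.88, 7.30 and 6.75 in CTRL ASO hearts. The OMA1 ASO2 values overlapped both other treatments, and 2 of the 3 were below background. The log2 difference of OMA1 ASO2 from OMA1 ASO1 was -1.08 (interval -1.87 to -0.29, unadjusted p = 0.0104, adjusted p = 0.433), a value that includes the signals below background. Col4a2 was at 7.40, 7.44 and 7.41 in OMA1 ASO2 hearts, against 8.25, 7.99, 8.05, 8.28 and 7.89 in OMA1 ASO1 hearts. These 2 treatments did not overlap for Col4a2, as for 4.84% of all clusters, and the difference was -0.68 (interval -1.30 to -0.05, adjusted p = 0.606, exact permutation p = 0.0179 two-sided, the smallest that 3 against 5 arrays allow). The CTRL ASO hearts, at 8.37, 8.41, 6.80, 8.32 and 7.70, lay on both sides of the OMA1 ASO2 values. Col4a1 and Col4a2 fell on the same side of their treatment means in 8 of 13 hearts. In that comparison Col4a4 and Col28a1 also did not overlap, but they were above background on 0 and 1 of 13 arrays, so no fold is given for them. Col4a3, a chain of specialised basement membranes, was above background on 6 of 13 arrays, and Col8a2, of the short-chain type VIII, differed by 0.09 (interval -0.22 to 0.40).

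The type VI chains made up the best measured filament family. Col6a2 was at 9.94, 9.14, 9.52, 10.13 and 6.75 in OMA1 ASO1 hearts, at 9.94, 9.50 and 9.39 in OMA1 ASO2 hearts, and at 9.41, 8.91, 8.45, 9.87 and 9.30 in CTRL ASO hearts. The difference of OMA1 ASO2 from OMA1 ASO1 was 0.52 (interval -0.66 to 1.69), and -0.07 without OMA1 ASO1 replicate 5, which was the lowest array for Col6a1, Col6a2 and Col6a3. Col6a3 had a pooled log2 fold change of -0.17 (interval -0.79 to 0.45), and of 0.04 without that heart, where it was at 5.24, below background. Col6a2 and Col6a3 deviated from their treatment means to the same side in 12 of 13 hearts. OMA1 ASO1 replicate 5 lowers the OMA1 ASO1 means of both genes, and the other OMA1 ASO1 hearts all lay above these means. Col6a4, Col6a5 and Col6a6 were above background on 0, 0 and 2 arrays.

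The remaining collagens were mostly too dim to compare. Of the 8 fibril-associated collagens, 1 was measured, Col9a3, with a pooled difference of 0.08 (interval -0.40 to 0.56). That value includes signals below background in OMA1 ASO2 replicate 2 (5.84) and CTRL ASO replicates 3 and 4 (5.80 and 5.65). Col23a1, a transmembrane collagen, was above background on all 3 OMA1 ASO2 arrays on 2 of 5 OMA1 ASO1 arrays and on 6 of 13 in all. Col18a1, whose cleaved end is endostatin, had the lowest p of all the genes in the pooled comparison (unadjusted p = 0.00406, adjusted p = 0.115) and for OMA1 ASO1 against CTRL ASO (adjusted p = 0.0578), with values of 4.28 to 4.83 in OMA1 ASO hearts and 3.49 to 4.40 in CTRL ASO hearts. All 13 values are below background, so no fold is given. In all, 12 of 42 collagens were above background on every array of a treatment and 23 were below it on every array.

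Col3a1 lay on the same side of its treatment mean as Col1a1 in 10 and as Col1a2 in 9 of 13 hearts. These counts include OMA1 ASO1 replicate 5, which lowers the OMA1 ASO1 mean of Col3a1 below all other OMA1 ASO1 hearts. The start windows of Col1a2 and Col3a1, the fibril chains, are printed to set the letters of these genes side by side, with CCAAT and TATAAA, the letters of the TATA box, in capitals on either strand.
Col1a2, chr6:4505368-4505667, plus strand: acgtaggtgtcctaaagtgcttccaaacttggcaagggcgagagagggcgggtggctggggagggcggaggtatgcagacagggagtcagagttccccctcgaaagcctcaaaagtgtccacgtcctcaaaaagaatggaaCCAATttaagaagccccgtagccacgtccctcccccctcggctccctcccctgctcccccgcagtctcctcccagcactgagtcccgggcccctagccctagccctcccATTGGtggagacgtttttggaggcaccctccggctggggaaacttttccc
Col3a1, chr1:45311288-45311587, plus strand: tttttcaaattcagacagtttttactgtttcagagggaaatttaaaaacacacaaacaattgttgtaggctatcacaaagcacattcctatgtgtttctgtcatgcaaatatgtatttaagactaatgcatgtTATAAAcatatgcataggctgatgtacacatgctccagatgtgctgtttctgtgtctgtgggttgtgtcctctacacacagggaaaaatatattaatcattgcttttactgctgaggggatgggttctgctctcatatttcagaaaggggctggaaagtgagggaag
The Col1a2 window holds CCAAT 2 times and the Col3a1 window 0 times. TATAAA on either strand is in 13.6% of all windows, in 6 of 46 windows of matrix genes and in the Col3a1 window once. The 2 windows therefore share neither of these motifs.

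The plot of fold changes shows how far the data bound a change. Of the 26 genes above background on every array of a treatment (a filter that a gene can pass through 1 treatment alone), 15 were above it on all 13 arrays. In 16 of the 26, the 95% interval of the pooled fold change lay within a factor of 2 either way. The median half-width of the intervals was 0.64 on the log2 scale. The interval reached a factor of 2 lower for 4 genes and a factor of 2 higher for 8. With OMA1 ASO2, on 3 arrays, 9 of the 26 intervals lay within a factor of 2.

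**Figure D2:**
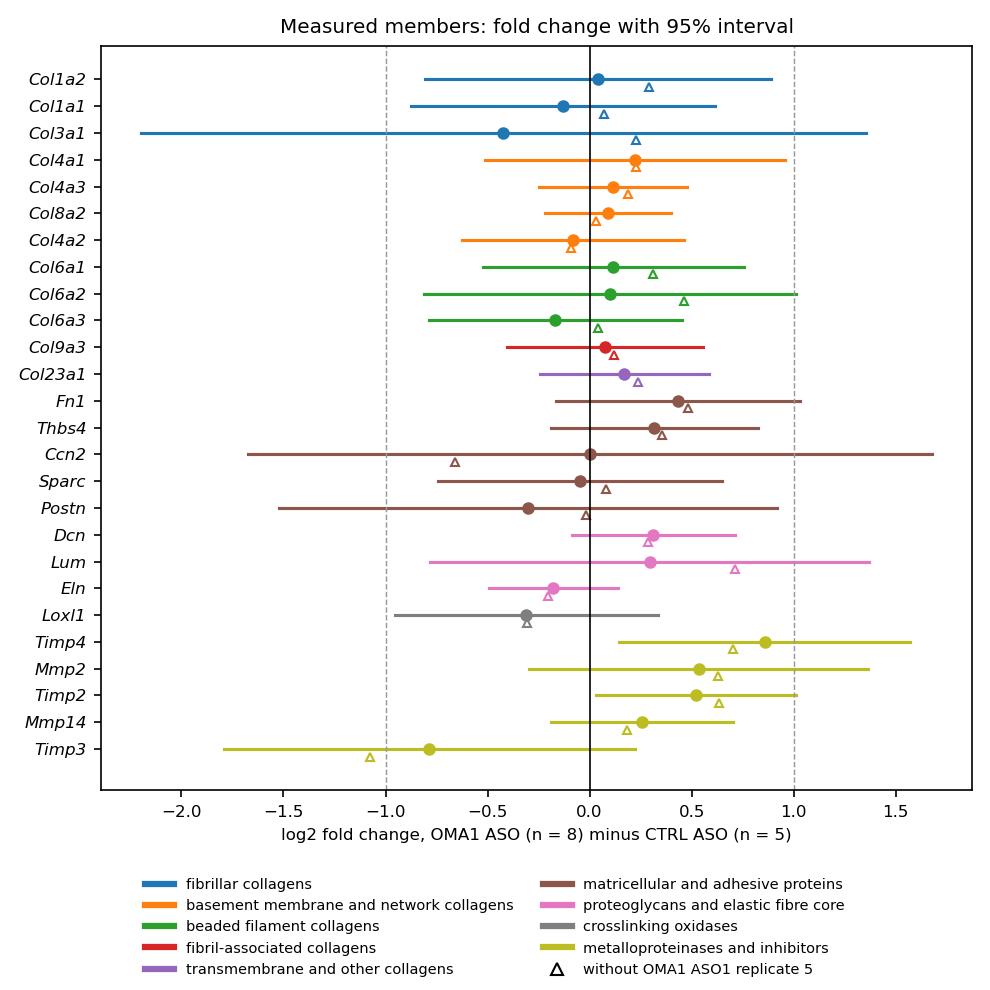
Log2 fold change of OMA1 ASO (n = 8) over CTRL ASO (n = 5) for the 26 matrix genes above background on every array of a treatment, grouped by family, as dots with 95% intervals from limma; dashed lines mark a factor of 2. Open triangles give the value without OMA1 ASO1 replicate 5, which lies across 0 from the dot for Col1a1, Col3a1, Col6a3, Sparc and Ccn2.

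The matricellular genes varied widely between hearts of 1 treatment. Postn, whose product periostin is made by activated fibroblasts, was at 11.57, 11.32, 12.23, 12.52 and 9.29 in OMA1 ASO1 hearts, at 10.30, 11.89 and 10.94 in OMA1 ASO2 hearts, and at 10.90, 10.42, 10.15, 13.55 and 12.78 in CTRL ASO hearts. CTRL ASO replicates 4 and 5 held the highest values. Its pooled log2 fold change was -0.30 (interval -1.52 to 0.92, adjusted p = 0.903), and 0.20 without CTRL ASO replicate 4, 0.00 without CTRL ASO replicate 5 and -0.02 without OMA1 ASO1 replicate 5, its lowest heart. With OMA1 ASO1 alone the Postn change was -0.17, and 0.35 without that heart. Sparc, a collagen-binding protein, was at 14.24, 14.19 and 14.68 in OMA1 ASO2 hearts, against 15.27, 15.28, 15.51, 15.99 and 14.00 in OMA1 ASO1 hearts. The lone overlapping heart is again OMA1 ASO1 replicate 5. The difference was -0.84 (interval -1.65 to -0.03, adjusted p = 0.624), and -1.14 without that heart (unadjusted p = 0.00186, adjusted p = 0.174). The CTRL ASO hearts spanned 14.20 to 15.72 for Sparc, and the pooled change was -0.05 with all arrays and 0.08 without OMA1 ASO1 replicate 5. Leaving out CTRL ASO replicate 1 or 4, or OMA1 ASO2 replicate 1 or 2, also gave a change above 0 (0.05 to 0.15).

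Fn1, the gene of fibronectin, averaged 7.97 ± 0.40 with OMA1 ASO and 7.54 ± 0.78 with CTRL ASO (SD, n = 8 and 5), a log2 fold change of 0.43 (interval -0.16 to 1.03, adjusted p = 0.594). Thbs4, a thrombospondin of striated muscle, averaged 6.59 ± 0.47 and 6.27 ± 0.45 in the same order, a change of 0.32 (interval -0.19 to 0.82). Thbs4 was above background on every array only with OMA1 ASO2. Its change includes signals below background in OMA1 ASO1 replicate 4 (5.75) and CTRL ASO replicates 2 and 3 (5.79 and 5.94). The changes of Fn1 and Thbs4 did not exceed the spread between hearts.

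Ccn2 and Thbs1 each had a single heart far above the rest. Ccn2, the connective tissue growth factor gene, was at 10.03, 11.97, 10.93, 10.36 and 16.66 in OMA1 ASO1 hearts, at 12.23, 11.84 and 12.23 in OMA1 ASO2 hearts, and at 12.84, 12.17, 10.92, 12.95 and 11.26 in CTRL ASO hearts. The pooled log2 fold change was 0.00 (interval -1.67 to 1.68), and -0.66 without OMA1 ASO1 replicate 5 (unadjusted p = 0.142, adjusted p = 0.535). For OMA1 ASO1 against CTRL ASO, leaving that heart out gave -1.20 (adjusted p = 0.167). Leaving out CTRL ASO replicate 3 or 5, or OMA1 ASO2 replicate 1 or 3, also gave values below 0 (-0.27, -0.19, -0.02 and -0.03). Thbs1, the gene of thrombospondin-1, a platelet and stress-response protein, was at 13.57 in OMA1 ASO1 replicate 5 and at 4.49 to 6.71 in the other 12 hearts. Lox, the gene of lysyl oxidase, which crosslinks collagen, was at 8.18 in that heart and at 3.95 to 5.75, below background, in the other 12. Of 72 other matrix-related genes from the lists described below that were above background on every array of a treatment, the same heart was the lowest of 13 for 26 and the highest for 7. The share over all clusters was not counted here either. Among the high ones, Ccn1, a matricellular relative of Ccn2, was at 18.44, against 13.19 to 14.57 elsewhere, Adamts1, a proteoglycan-cutting protease, at 12.62, against 7.31 to 10.13, and Thbs2 at 11.38, against 7.57 to 9.08. Among the low ones, Ogn, a small proteoglycan, was at 15.31, against 16.53 to 17.74, Sparcl1, a relative of Sparc, at 14.11, against 15.24 to 16.00, and Adamts5, another proteoglycan-cutting protease, at 5.33, against 6.13 to 8.16. The macrophage markers Csf1r and Lyz2 were low there, at 5.17 and 10.14, against 6.85 to 8.57 and 11.01 to 12.89. The part of any cell type or of tissue handling in these values was not tested.

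**Figure D3:**
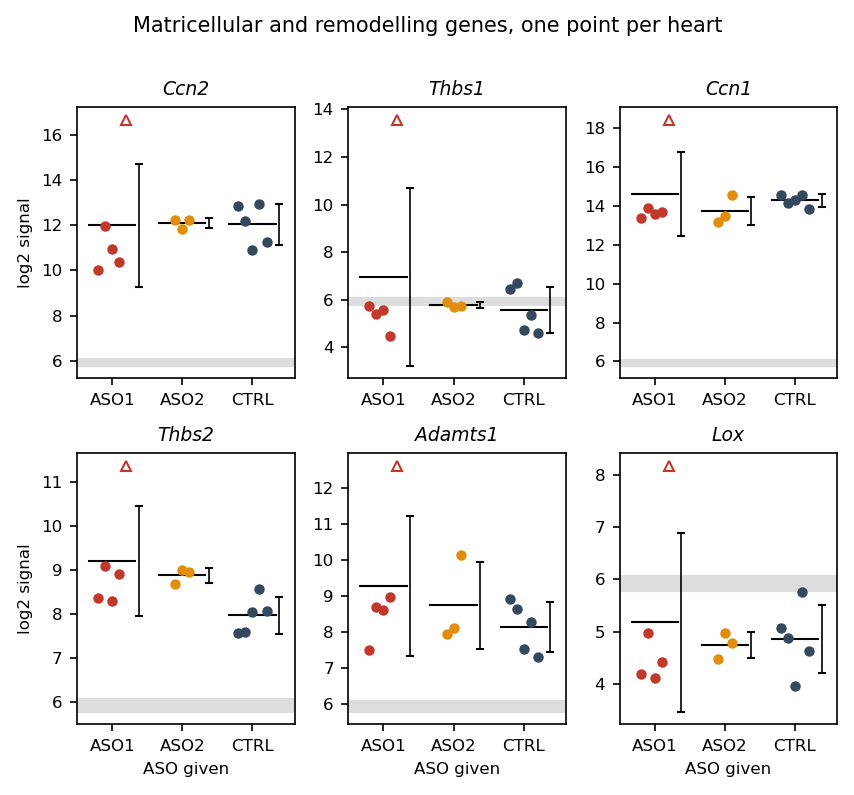
Log2 signal of 6 genes in OMA1 ASO1, OMA1 ASO2 and CTRL ASO hearts, 1 point per heart, with means, SD bars and the background range in grey. OMA1 ASO1 replicate 5, the open triangle, is the highest of the 13 hearts for all 6, and lies at 13.57 for Thbs1 where the other hearts are at 4.49 to 6.71.

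Decorin and lumican, the small leucine-rich proteoglycans that coat collagen fibrils, both had positive pooled fold changes that did not pass the threshold, and their genes lay on the same side of their treatment means in 10 of 13 hearts. Dcn was at 18.37, 18.41, 18.34, 18.51 and 18.76 in OMA1 ASO1 hearts, at 18.68, 18.95 and 18.66 in OMA1 ASO2 hearts, and at 18.15, 17.97, 17.72, 18.81 and 18.72 in CTRL ASO hearts. Its pooled change was 0.31 (interval -0.09 to 0.71, adjusted p = 0.549). Lum was at 13.61, 12.98, 13.98, 14.55 and 10.38 in OMA1 ASO1 hearts, at 13.56, 13.91 and 13.53 in OMA1 ASO2 hearts, and at 12.80, 12.20, 12.70, 13.48 and 13.92 in CTRL ASO hearts. Its pooled change was 0.29 (adjusted p = 0.891), and 0.71 without OMA1 ASO1 replicate 5 (unadjusted p = 0.0216, adjusted p = 0.232), and its difference of OMA1 ASO2 from OMA1 ASO1 was 0.57 with and -0.11 without that heart. Eln, the gene of elastin, changed by -0.18 (interval -0.50 to 0.14), one of the narrowest intervals. Loxl1, a lysyl oxidase relative needed for elastic fibres, changed by -0.31 (interval -0.95 to 0.34), with CTRL ASO hearts at 6.13 to 8.62.

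Among the 26 genes above background on every array of a treatment, the metalloproteinase inhibitors had the lowest p against CTRL ASO hearts. Timp4, the inhibitor most typical of heart muscle, was at 9.11, 9.74, 9.07, 8.996 and 10.24 in OMA1 ASO1 hearts, at 9.60, 8.14 and 8.26 in OMA1 ASO2 hearts, and at 8.96, 8.82, 8.47, 7.80 and 7.37 in CTRL ASO hearts. All 5 OMA1 ASO1 values lay above all 5 CTRL ASO values, as was so for 1 of 59 matrix genes and, in either direction, 3.86% of all clusters. The nearest pair was 8.996 and 8.96. The change with OMA1 ASO1 was 1.14 (interval 0.41 to 1.88, unadjusted p = 0.00463, adjusted p = 0.132, exact permutation p = 0.00794 two-sided, the smallest that 5 against 5 arrays allow). With OMA1 ASO2 it was 0.38 (interval -0.47 to 1.24), and the difference between the oligonucleotides was -0.76 (interval -1.61 to 0.09, adjusted p = 0.692). The pooled change was 0.86 (adjusted p = 0.275), and 0.70 without OMA1 ASO1 replicate 5.

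Timp2, whose product also takes part in activating the MMP2 proenzyme, was at 10.82, 10.99 and 10.86 in OMA1 ASO2 hearts, against 10.03, 9.78, 9.59, 10.78 and 10.39 in CTRL ASO hearts. The groups did not overlap, as for 1 of 59 matrix genes and 9.06% of all clusters. The log2 fold change was 0.77 (interval 0.16 to 1.39, unadjusted p = 0.0161, adjusted p = 0.265). OMA1 ASO1 hearts overlapped both, at 10.41, 10.62, 10.36, 11.19 and 9.84, and the pooled change was 0.52 (adjusted p = 0.353). Timp3, the inhibitor that stays bound to the matrix, went the other way in value, at 7.72, 7.65, 6.98, 8.40 and 10.30 in OMA1 ASO1 hearts, 7.64, 7.72 and 9.69 in OMA1 ASO2 hearts, and 8.18, 8.91, 9.82, 9.82 and 8.51 in CTRL ASO hearts. Its pooled change was -0.79 (interval -1.79 to 0.22, adjusted p = 0.549), and -1.08 without OMA1 ASO1 replicate 5 (unadjusted p = 0.0124, adjusted p = 0.176). In the pooled comparison 0 of 59 matrix genes had treatments that did not overlap, against 1.9% of all clusters.

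Of the proteases, Mmp2, a gelatinase, averaged 10.80 ± 0.60 with OMA1 ASO and 10.26 ± 1.12 with CTRL ASO (SD, n = 8 and 5), a log2 fold change of 0.53 (interval -0.30 to 1.36). The 3 OMA1 ASO2 hearts lay close together, at 10.83, 10.85 and 10.88, within the CTRL ASO range of 8.59 to 11.26. Mmp14, the membrane-bound protease that activates the MMP2 proenzyme, changed by 0.25 (interval -0.19 to 0.70). Timp1, an inhibitor induced by injury, was above background on 1 of 13 arrays.

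**Figure D4:**
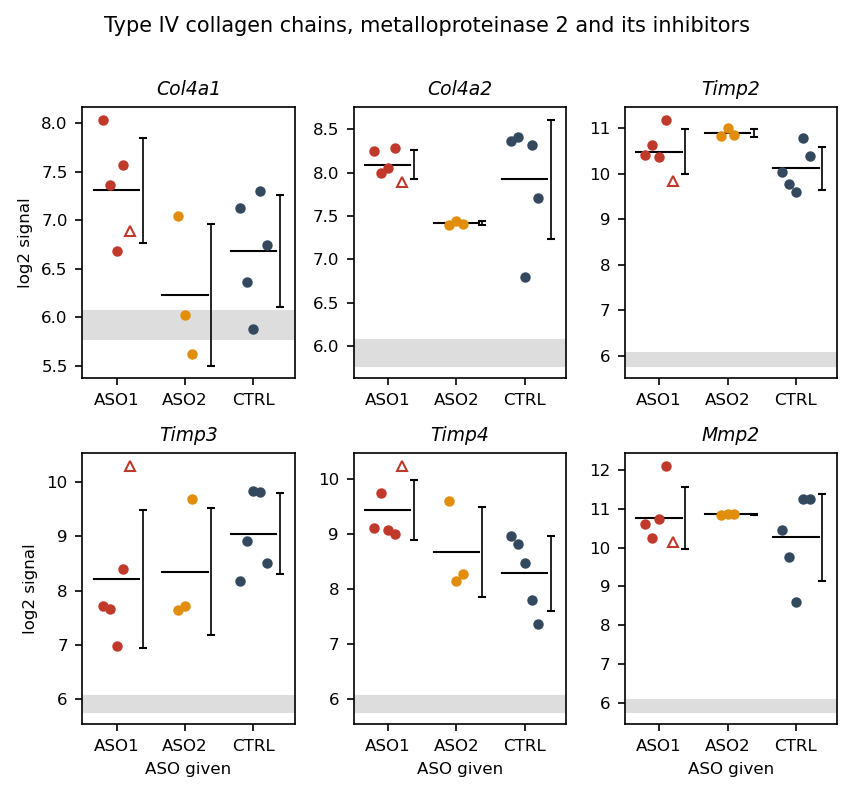
Log2 signal of Col4a1, Col4a2, Timp2, Timp3, Timp4 and Mmp2 in OMA1 ASO1, OMA1 ASO2 and CTRL ASO hearts, 1 point per heart, with means, SD bars and the background range in grey. Col4a2 lies at 7.40 to 7.44 in all 3 OMA1 ASO2 hearts, below the 5 OMA1 ASO1 hearts, and Timp4 lies at 8.996 or above in all 5 OMA1 ASO1 hearts.

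The spread between hearts of 1 treatment was wide for these genes. The median within-treatment SD of the 26 measured matrix genes was 0.61 on the log2 scale, against 0.33 for the 9278 clusters that passed the same filter, and 0.49 against 0.30 without OMA1 ASO1 replicate 5. Col3a1 (1.92), Ccn2 (1.81), Postn (1.30), Lum (1.12) and Timp3 (1.07) had SDs above those of at least 98.99% of these clusters. These ranks include OMA1 ASO1 replicate 5. Without it the SDs were 1.08, 0.79, 1.12, 0.60 and 0.81 in the same order of genes. Dcn (0.33), Eln (0.22) and Col8a2 (0.21) lay at the percentiles 49.23, 14.16 and 12.42. This is a description, and no test was run on it.

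Genes that act on the matrix were taken from lists of folding enzymes, secretion and processing factors, laminins, other proteoglycans, elastic fibre proteins, other matricellular proteins, other proteases, collagen receptors and TGF-beta signalling. Of the 17 collagen folding and modification genes analysed, 1 was lower and 0 were higher with OMA1 ASO, where 1.04% of all clusters passed. The lower gene was P3h2, a prolyl 3-hydroxylase of the endoplasmic reticulum that acts on basement membrane collagen. P3h2 was at 7.85, 7.44, 6.99, 7.67 and 7.63 in OMA1 ASO1 hearts, at 8.54, 8.33 and 7.08 in OMA1 ASO2 hearts, and at 8.93, 9.77, 8.28, 10.99 and 9.88 in CTRL ASO hearts. The OMA1 ASO1 values lay below all CTRL ASO values, while those of OMA1 ASO2 overlapped them. OMA1 ASO1 and CTRL ASO arrays did not overlap, in either direction, for 3.86% of all clusters. The pooled log2 fold change was -1.88 (SE 0.36, adjusted p = 0.00779), which is 0.272 of the CTRL ASO signal. With OMA1 ASO1 alone it was -2.05 (adjusted p = 0.0103) and with OMA1 ASO2 alone -1.58 (adjusted p = 0.122), so only the pooled comparison gave a call. The call was narrow: it held without CTRL ASO replicate 3, OMA1 ASO1 replicate 5, or OMA1 ASO2 replicate 1 or 2, and was lost on leaving out any other array, with adjusted p up to 0.0313 and fold changes of -2.20 to -1.52 over all 13 omissions.

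Of 11 TGF-beta ligands, receptors and response genes, 1 was lower and 0 were higher with OMA1 ASO, where 1.04% of all clusters passed. Tgfb2, a ligand that raises matrix synthesis in fibroblasts, was at 8.27, 8.45, 8.26, 7.76 and 8.25 in OMA1 ASO1 hearts, at 8.86, 8.38 and 8.64 in OMA1 ASO2 hearts, and at 9.88, 9.65, 9.23, 11.27 and 10.06 in CTRL ASO hearts. All 8 OMA1 ASO hearts lay below all 5 CTRL ASO hearts, where 1.9% of all clusters did not overlap in either direction. The log2 fold change was -1.66 (SE 0.27, adjusted p = 0.00144), with OMA1 ASO1 -1.82 (adjusted p = 0.00184) and with OMA1 ASO2 -1.39 (adjusted p = 0.0436), and the pooled call held with each array left out in turn. CTRL ASO replicate 4, with the highest value of Tgfb2, also had the highest values of P3h2 and Postn.

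Of 14 laminins and other basement membrane proteins, 0 were lower and 1 was higher with OMA1 ASO2, where 0.761% of all clusters passed. Lama2, the laminin chain of the muscle basement membrane, was at 11.58, 11.59 and 11.46 in OMA1 ASO2 hearts, at 11.01, 11.28, 11.13, 11.05 and 10.73 in OMA1 ASO1 hearts, and at 10.58, 10.28, 10.43, 10.86 and 10.65 in CTRL ASO hearts. The log2 fold change with OMA1 ASO2 was 0.98 (SE 0.18, adjusted p = 0.00856) and the pooled one 0.67 (adjusted p = 0.047). The call with OMA1 ASO2 held without CTRL ASO replicate 4 or OMA1 ASO1 replicate 5 and was lost on leaving out any other array (adjusted p up to 0.0516), while the fold change stayed at 0.91 to 1.06. In the remaining 6 lists, 0 genes passed the threshold in any of the 4 comparisons with all arrays. Without OMA1 ASO1 replicate 5, 2 did: Smoc2, a SPARC relative, in the pooled comparison (1.03, adjusted p = 0.00651, against 0.83 and 0.188 with all arrays) and Adamts5 with OMA1 ASO1 (1.21, adjusted p = 0.00608, against 0.71 and 0.549). At an unadjusted p under 0.05 in the pooled comparison they held 1 of 13 secretion and processing genes, 0 of 11 proteoglycans, 0 of 16 elastic fibre proteins, 3 of 16 matricellular genes, 4 of 18 proteases and 0 of 8 collagen receptors, where 12.8% of all clusters did so.

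**Figure D5:**
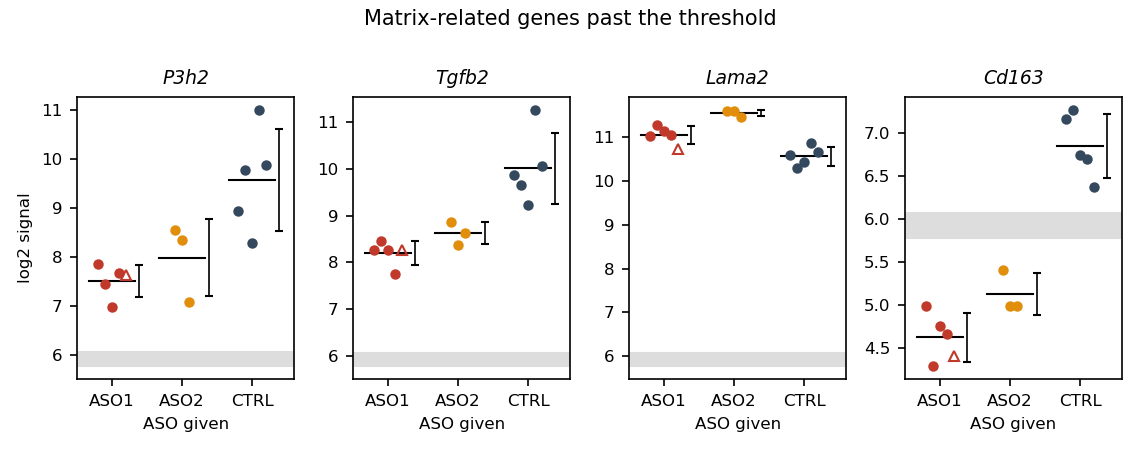
Log2 signal of P3h2, Tgfb2, Lama2 and the macrophage marker Cd163 in OMA1 ASO1, OMA1 ASO2 and CTRL ASO hearts, 1 point per heart, with means, SD bars and the background range in grey. For Tgfb2 and Cd163 all 8 OMA1 ASO hearts lie below all 5 CTRL ASO hearts, where 1.9% of all clusters did not overlap in either direction.

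Markers of the cells that make or touch the matrix were read beside these values. Of 9 resident fibroblast markers, 0 passed the threshold in any comparison. The log2 of their summed signals was 15.2 to 15.7 with OMA1 ASO1, 16.5 to 16.6 with OMA1 ASO2 and 15.6 to 16.5 with CTRL ASO. Such a sum follows the brightest genes of its list and is not an amount of a cell type. The brightest is Gsn here, Acta2 for activated fibroblasts and Lyz2 for macrophages. Of 9 activated fibroblast markers 0 passed, with sums of 12.7 to 13.3, 11.7 to 12.6 and 12.7 to 15.2 in the same order of treatments. Their pooled fold changes were negative for 7 and positive for 2, and 3 had an unadjusted p under 0.05 (12.8% of all clusters). With OMA1 ASO2 8 were negative and 1 positive, 4 reached that p (11.9%), and 3 did not overlap CTRL ASO (9.06%). Only 4 of the 9 were above background on every array of a treatment. The endothelial list (8 genes, 0 past the threshold) gave sums of 15.3 to 15.8, 14.9 to 15.4 and 14.9 to 15.5 in the same order of treatments. The type IV collagen difference between the oligonucleotides ran in the direction of this endothelial sum, but the list was split. In OMA1 ASO2 against OMA1 ASO1, 5 endothelial markers had negative and 3 had positive fold changes. Vwf went the other way, at 7.82, 8.33 and 9.86 with OMA1 ASO2 and 6.74 to 8.23 with OMA1 ASO1. The part of endothelial cells in the collagen difference was not tested. Of 8 macrophage markers, 4 had negative and 4 positive pooled fold changes, and 1 passed, where 1.04% of all clusters did. This marker, Cd163, a scavenger receptor of resident macrophages, was below background in all 8 OMA1 ASO hearts and at 6.36 to 7.27 in CTRL ASO hearts. That is a level at least 1.8-fold lower in the OMA1 ASO hearts (adjusted p = 5.68e-06). Lyz2, a lysozyme gene of macrophages, had a pooled change of 0.70 (adjusted p = 0.467), and passed with 1.01 (adjusted p = 0.00937) without OMA1 ASO1 replicate 5. The macrophage sums were 10.6 to 13.1, 13.1 to 13.1 and 11.6 to 12.5. The lymphocyte and adipocyte markers, 6 and 5 genes, were below background on every array. Of 6 atrial cardiomyocyte markers 1 passed for OMA1 ASO1 against CTRL ASO, where 0.919% of all clusters did. This marker was Bmp10, a growth factor of the atria, with a log2 fold change of -4.59 in that comparison (adjusted p = 0.00482). The Bmp10 call was lost on leaving out OMA1 ASO1 replicate 2, 3 or 4 or CTRL ASO replicate 1, 2, 4 or 5. The atrial sum ran from 16.4 to 18.8 with OMA1 ASO1, from 16.7 to 18.5 with OMA1 ASO2 and from 13.9 to 18.8 with CTRL ASO, but it followed Nppa (13.75 to 18.82), a natriuretic peptide gene also induced in stressed ventricle. Of the defining atrial markers, Myl7 and Dhrs9 were below background on every array and Myl4 was at 7.59 to 8.84. The part of atrial tissue in the matrix values was not tested. In the pericyte and smooth muscle, endocardial, epicardial, Schwann cell and blood cell lists 0 genes passed in any comparison.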

How the data were processed

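The authors extracted RNA from hearts with the RNeasy Fibrous Tissue kit, hybridised it to Clariom S Mouse arrays and summarised it in Transcriptome Analysis Console by gene-level SST-RMA, which corrects background, normalises the arrays by quantiles and pools the probes of each transcript cluster. The deposited values are log2 signals. No source used here names the genome build behind the probe set annotation, so RefSeq GRCm38.p6 served only for names and promoter windows. Of 28846 probe sets, 6640 controls were left out and 22206 clusters were fitted in limma 3.58.1 (R 4.3.3) without trend or robust fitting, with Benjamini-Hochberg adjustment over all of them and a threshold of 0.01. The pooled comparison was a model of 2 groups, and the others came from a model of 3 group means. Named genes were those past the threshold, the 8 largest falls and rises in the pooled comparison and 4 in each other one, genes without overlap, the 5 of highest mean signal, and up to 3 past the threshold in each other list. The brightest cluster stood for each gene. Exact permutation tests ran over arrays. The fits were run on simulated data with independent normal noise and no outlying heart, which checks the code only. No labels tie arrays to litters or batches, and precision is limited by how many arrays there are. The members and lists were chosen with earlier results of these data known.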

Additional observations from a re-analysis of the deposited data

Results flagged for a closer look

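In 9 genes 1 heart lay further from the rest of its treatment than Dixon's 95% criterion allows. This was so for 11 of 78 gene and treatment groups examined. The groups overlap, since the OMA1 ASO1 hearts are also among the OMA1 ASO hearts, and most of the genes were named by their changes in these data. The rate of 1 in 20 for independent groups is therefore no measure for this count. In OMA1 ASO1 replicate 5, Col3a1 was at 4.53, with the next OMA1 ASO heart at 8.60 and the next OMA1 ASO1 heart at 9.35, so it stood apart in both sets. The same heart was low for Col6a3 (5.24, next 6.68), Lum (10.38, next 12.98) and Col6a2 (6.75, next 9.14) and high for Ccn2 (16.66, next 12.23) among all OMA1 ASO hearts. Loxl1 was low in OMA1 ASO1 replicate 3 (6.34, next 7.22), among the OMA1 ASO1 hearts and among all OMA1 ASO hearts. Among all OMA1 ASO hearts, Mmp2 was high in OMA1 ASO1 replicate 4 (12.11, next 10.88) and Col23a1 high in OMA1 ASO2 replicate 2 (6.91, next 6.16). Tgfb2 was low in OMA1 ASO1 replicate 4 among the OMA1 ASO1 hearts (7.76, next 8.25). What set these hearts apart was not tested.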

How the results depend on the processing

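The count of matrix genes past the threshold was 0 in each of the 4 comparisons under every alternative run: mean-variance trend with robust fitting, repeated quantile normalization, centring on the median, clusters above background only (26 of the genes), array weights, the Y-linked genes as a covariate, an equal-weight mean of both OMA1 ASOs, only the arrays compared, adjusted p under 0.05 and each array left out. Some signs turned. With array weights the pooled change was 0.0275 for Col1a1, 0.0588 for Sparc and -0.49 for Ccn2, and that of Col3a1 with OMA1 ASO1 was 0.27, and with the Y-linked covariate Sparc gave 0.0069. The cause was not tested. Leaving out 1 array at a time turned the sign in the pooled comparison for Col4a2 (-0.36 to 0.0405), Sparc (-0.23 to 0.15), Ccn2 (-0.66 to 0.29), Postn (-0.65 to 0.20), Col1a1 (-0.33 to 0.072), Col3a1 (-0.96 to 0.23) and Col6a3 (-0.28 to 0.041), with OMA1 ASO1 for Col3a1 (-0.90 to 0.79) and Col6a3 (-0.51 to 0.0544), and between OMA1 ASO2 and OMA1 ASO1 for Lum (-0.11 to 0.93) and Col6a2 (-0.0697 to 0.78). The pooled P3h2 call was also lost with trend and robust fitting (adjusted p = 0.0110), repeated quantile normalization (0.0112), the Y-linked covariate (0.0144) and the equal-weight mean (0.0109), and the Lama2 call with OMA1 ASO2 with the Y-linked covariate (0.0186) and only the arrays compared (0.0153). The Bmp10 call was lost with trend and robust fitting (0.0505) and only the arrays compared (0.0101). With the replicate number as a block, the pooled change of Sparc was 0.0047, the Lama2 call was lost (adjusted p = 0.0412), 0 matrix genes passed in any comparison, and 196, 197, 124 and 14 of all clusters passed, against 230, 204, 169 and 23 without it. Same-numbered arrays of different treatments correlated at -0.17 to 0.33 over 11 pairs (median 0.093, 5 over 0.1), against a median of -0.033 over 44 other pairs (10 over 0.1). No label ties the numbers to a shared litter or day, so the samples were not treated as paired. Signal over background limits the rest: 23 of 59 genes were below background on all arrays.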
